A study of Mus musculus with 10 samples.

Results

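A set of 9 chemokine genes is described here across T cells taken from mouse melanomas: Ccl3, Ccl4, Ccl5, Xcl1, Ccl1, Ccl6, Cxcl10, Cxcl9 and Cxcl2. They were taken by symbol from the deposited table of normalized counts, where they are 9 of 48825 genes, and all 9 reached the minimum level for testing, with 15716 genes in all. The genes were chosen by their normalized counts in these same libraries, with earlier results known, so their levels and differences are given as a description and support no claim beyond the values themselves.

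Chemokines are small secreted proteins that steer white blood cells through G protein coupled receptors. Activated CD8 T cells and natural killer cells release CCL3, CCL4, CCL5 and XCL1 together with cytokines and cytotoxic granule proteins, and these draw in cells that carry CCR1 or XCR1, among other receptors. CXCL9 and CXCL10 are induced by interferon gamma and draw in T cells through CXCR3, while CXCL2 draws in neutrophils through CXCR2. In tumors, T cells and myeloid cells both make chemokines, and each cell type follows those of the other.

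All mice carried the BrafCA and Tyr::CreER alleles, in which the tyrosinase promoter drives an inducible Cre in melanocytes. There the recombinase switches on an oncogenic Braf allele. A separate genotype label reads wild type. Mice given both agents (CSF1Ri+CD40) gave 2 libraries, mice injected with FGK4.5, an antibody that activates CD40 (CD40), gave 3, mice fed chow with PLX6134, an inhibitor of the macrophage growth factor receptor CSF1R (CSF1Ri), gave 2, and control mice gave 3. Both treatments began on day 30 after tumor induction, with chow holding 600 mg/kg of the inhibitor. Antibody doses were 10 mg/kg at intervals of 3 days, to a maximum of 10 doses. Controls ate normal chow, and PBS was the vehicle of the antibody. Mice were age-matched, and the labels state no age. Each library is a pool of at least 3 tumors, so the spread between libraries is a spread between pools. Libraries are named by group and by the number in their title; the title of CSF1Ri 1 has no number.

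By their titles these are T cell libraries, yet the label for tissue reads tumor associated macrophages. The T cell gene Cd3e lay between 10586 and 23096 normalized counts in every library and Csf1r, the macrophage receptor, between 30 and 235. The CD8 chain gene Cd8a lay between 1051 and 4947. The mast cell gene Cpa3 reached 4168 in CD40 1 and 2840 in CSF1Ri+CD40 1. CD40 3 stood apart, with the highest level of the nuclear RNA Malat1 (95260, against at most 59286 elsewhere), the lowest Cd8a (1051) and the lowest Ifng (203, against at least 563 elsewhere). Y-linked transcripts summed to 3072 in CD40 3, 1569 in CD40 2 and 2438 in control 1 and to at most 1 in the other libraries. The labels give no sex. Leaving out these 3 libraries turned some values, and those of Cxcl2 and of the other chemokine ligands with CD40 are given both ways. Other turns, such as that of Ccl5 with CD40, are not all given. The mitochondrial transcript mt-Nd4 was lower in every treated library than in every control, at 9168 and 12385 counts in CSF1Ri+CD40 libraries, 11278, 11105 and 7217 in CD40 libraries, 10721 and 12011 in CSF1Ri libraries and 13337, 21713 and 21596 in control libraries. Mitochondrial transcripts together made up 1.58% to 2.33% with both agents, 1.07% to 2.04% with CD40, 2.00% to 2.17% with CSF1Ri and 1.91% to 3.07% in control, and their part in the differences described was not tested. In bulk RNA, fewer cells of a type and less RNA per cell cannot be told apart.

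Promoter sequences of 7 of the 9 genes, each running from 250 bases before to 50 bases after the RefSeq gene start, were read from GRCm38.p6 and searched on both strands for motifs of factors that act in activated lymphocytes and in interferon responses. Capitals mark matches to GGAAAA (the core bound by NFAT), to TGANTCA (AP-1), to the interferon-stimulated response element and to the NF-kB consensus. Ccl4 and Ccl5 had no promoter entry. Ccl3 is shown as the only one of Ccl3, Ccl4 and Ccl5 with a sequence, and Xcl1 with Ccl1 and Cxcl10 with Cxcl2 because the levels of each pair moved together over the libraries. The Ccl3 window is chr11:83649329-83649628 on the minus strand, Xcl1 is chr1:164935473-164935772 (minus), Ccl1 is chr11:82179763-82180062 (minus), Cxcl10 is chr5:92348840-92349139 (minus) and Cxcl2 is chr5:90903649-90903948 (plus).
Ccl3: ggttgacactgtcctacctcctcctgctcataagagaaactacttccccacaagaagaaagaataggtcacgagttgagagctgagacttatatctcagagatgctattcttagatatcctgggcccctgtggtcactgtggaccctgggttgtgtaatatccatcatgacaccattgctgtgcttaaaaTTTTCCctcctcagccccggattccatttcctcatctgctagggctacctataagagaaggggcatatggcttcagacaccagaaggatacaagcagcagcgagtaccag
Xcl1: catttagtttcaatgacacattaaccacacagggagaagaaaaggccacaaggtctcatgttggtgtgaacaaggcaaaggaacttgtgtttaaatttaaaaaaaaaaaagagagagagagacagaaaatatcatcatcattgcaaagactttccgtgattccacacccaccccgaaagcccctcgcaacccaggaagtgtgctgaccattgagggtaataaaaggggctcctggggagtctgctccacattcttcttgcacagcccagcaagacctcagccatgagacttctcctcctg
Ccl1: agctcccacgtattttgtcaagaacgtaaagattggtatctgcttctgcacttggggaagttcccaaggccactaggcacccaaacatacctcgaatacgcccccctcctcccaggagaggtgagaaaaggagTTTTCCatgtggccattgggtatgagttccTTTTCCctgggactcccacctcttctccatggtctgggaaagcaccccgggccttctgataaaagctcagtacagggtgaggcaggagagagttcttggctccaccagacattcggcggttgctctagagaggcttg
Cxcl10: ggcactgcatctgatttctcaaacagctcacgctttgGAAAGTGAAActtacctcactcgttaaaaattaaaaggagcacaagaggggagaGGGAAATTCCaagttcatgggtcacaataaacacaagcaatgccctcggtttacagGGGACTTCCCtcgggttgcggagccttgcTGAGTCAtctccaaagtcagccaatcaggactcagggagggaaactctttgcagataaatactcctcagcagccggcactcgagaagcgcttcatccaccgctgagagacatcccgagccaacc
Cxcl2: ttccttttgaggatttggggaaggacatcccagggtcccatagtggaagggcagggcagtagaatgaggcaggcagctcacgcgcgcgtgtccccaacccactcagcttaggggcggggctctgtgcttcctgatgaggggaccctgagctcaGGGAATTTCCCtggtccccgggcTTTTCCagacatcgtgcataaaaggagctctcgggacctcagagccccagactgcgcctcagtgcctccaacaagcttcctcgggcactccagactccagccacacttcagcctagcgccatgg
Cxcl10 held an interferon-stimulated response element beginning 213 bases before the start, NF-kB matches at 159 and 103 bases and an AP-1 match at 74 bases. Cxcl2 held an NF-kB match on both strands, overlapping at 97 and 96 bases, and an NFAT core at 74 bases. Ccl1 held NFAT cores at 117 and 87 bases and Ccl3 an NFAT core at 60 bases, while the Xcl1 window held none of these letters. Of 32817 promoters of the same length, 4.50% held the NF-kB consensus, 3.43% the response element, 7.81% AP-1 and 23.3% the NFAT core. These are matches of letters, and binding was not measured here.

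The 9 genes lie on 3 chromosomes of GRCm38. Ccl3 (chr11:83647844-83649355) and Ccl4 (chr11:83662584-83664683) are neighbors with 13.2 kb between them, Ccl6 (chr11:83587882-83593087) and Ccl5 (chr11:83525778-83530518) lie in the same cluster, and Ccl1 (chr11:82176657-82305690) lies farther off on that chromosome. Cxcl9 (chr5:92321347-92328079) and Cxcl10 (chr5:92346638-92348889) are 18.6 kb apart, Cxcl2 (chr5:90903871-90905938) is on the same chromosome, and Xcl1 (chr1:164931644-164935527) stands alone.

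Per kilobase of merged exons, Ccl5 was by far the most abundant, at 29590 ± 17500 normalized counts per kb (mean and SD over all 10 libraries). Ccl4 followed at 4476 ± 3920, Xcl1 at 1763 ± 1040, Ccl1 at 1587 ± 1680 and Ccl3 at 838.5 ± 707. Ccl6 stood at 262.7 ± 148, Cxcl10 at 66.3 ± 51.9, Cxcl2 at 32.0 ± 26.0 and Cxcl9 at 6.43 ± 15.7. Ccl5 exceeded Ccl4 and Cxcl10 exceeded Cxcl2 in 10 of 10 libraries. Xcl1 exceeded Ccl1, and Ccl1 exceeded Ccl3, in only 7 of 10, so these neighbors did not differ beyond their spread. Counted per kilobase of coding sequence, Ccl1 followed Ccl5 at 11060, ahead of Ccl4 at 10700; Ccl1 exceeded Ccl4 in only 6 of 10 libraries, so their order was not settled. Ccl5 alone made up 55.3% to 88.8% of the summed counts of the 9 genes, and the 9 together made up 0.0738% of all counts in CD40 3 and 0.146% to 0.640% in the other libraries.

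**Figure D1:**
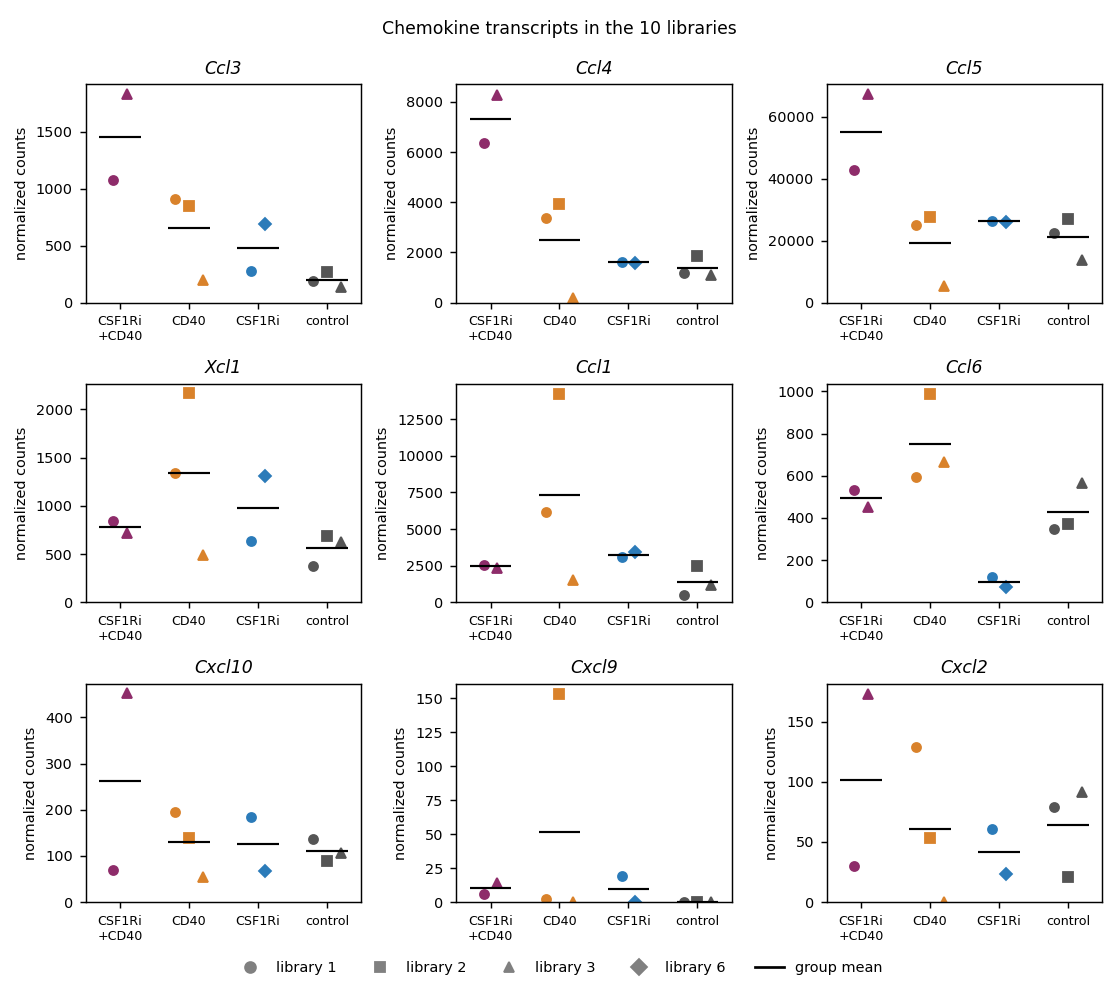
Normalized counts of the 9 chemokine genes (vertical axes, linear from 0) in the 10 libraries, by group; each point is 1 library, its shape is the number in the title, and the line is the group mean. Ccl3, Ccl4 and Ccl5 were highest in both CSF1Ri+CD40 libraries, Ccl1 in CD40 2, and Ccl6 was lowest in both CSF1Ri libraries.

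Ccl3, Ccl4 and Ccl5, ligands that activated CD8 T cells release, were all highest in the tumors given both agents. Ccl3 had 1074 and 1830 normalized counts in CSF1Ri+CD40 libraries 1 and 3, 912, 847 and 203 in CD40 libraries 1, 2 and 3, 276 and 686 in CSF1Ri libraries 1 and 6, and 190, 272 and 133 in control libraries 1, 2 and 3. Both CSF1Ri+CD40 libraries lay above every other library, and both CSF1Ri libraries lay above every control, if only narrowly for CSF1Ri 1. The log2 fold change of Ccl3 over control was 2.88 ± 0.641 with both agents (SE; 95% interval 1.47 to 4.28), 1.50 ± 0.573 with CD40 and 1.19 ± 0.641 with CSF1Ri, and the interaction was 0.19 ± 0.906. Without CD40 3 the CD40 value was 2.20 and the interaction -0.52, so that library turned the sign of the interaction.

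Ccl4 had 6380 and 8292 counts in CSF1Ri+CD40 libraries, 3367, 3922 and 188 in CD40 libraries, 1640 and 1581 in CSF1Ri libraries and 1200, 1869 and 1103 in control libraries. Both CSF1Ri+CD40 libraries exceeded every other library, while the CD40 libraries fell on both sides of the controls, with CD40 3 below them all. Over control, the log2 fold change was 2.43 ± 0.973 with both agents (95% interval 0.29 to 4.56), 0.00 ± 0.871 with CD40 and 0.25 ± 0.973 with CSF1Ri. CD40 3 set the CD40 value and most of the spread: without that library the CD40 log2 fold change of Ccl4 was 1.43 ± 0.246, and that of both agents stayed at 2.43 with an SE of 0.246.

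Ccl5 had 42854 and 67337 counts in CSF1Ri+CD40 libraries, 25018, 27801 and 5367 in CD40 libraries, 26443 and 26038 in CSF1Ri libraries and 22435, 27011 and 13764 in control libraries. Only the CSF1Ri+CD40 group was clear of the rest; neither single agent separated from control. The log2 fold change over control was 1.41 ± 0.577 with both agents (95% interval 0.14 to 2.67), -0.39 ± 0.516 with CD40 and 0.37 ± 0.577 with CSF1Ri. Without CD40 3, the CD40 value of Ccl5 was 0.38.

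No member passed an adjusted p of 0.05 in any of 8 comparisons in limma with Benjamini-Hochberg adjustment over all 15716 genes; the smallest over control was 0.521, for Ccl3 with both agents. Of all genes, 0.0% passed for both agents over control, and 0.00636% (1 gene) for each agent alone. At an unadjusted p under 0.05 there were 849 genes for both agents, 1005 for CD40 and 641 for CSF1Ri. Without CD40 3, Ccl4 passed for both agents over control (adjusted p = 0.0156 in limma), since its spread was smaller, and was the only gene to do so. CD40 3 had the lowest Ccl4 value (188), so the pass came from leaving out the value that made the spread and is no separate support. In CSF1Ri+CD40 over control, 5 of the 9 genes (Ccl3, Ccl4, Ccl5, Xcl1 and Cxcl9) had every treated library above every control library, as did 10.6% of all genes. All 9 log2 fold changes were above 0 in that comparison, with a median of 1.10; among all genes 49.3% were above 0. Of the 9, 7 were above 0 with CD40 and 7 with CSF1Ri, as were 49.0% and 51.1% of all genes. Those with CD40 include Ccl4 at 0.00 and Cxcl10 at 0.07, and those with CSF1Ri include Cxcl10 at 0.04. Cxcl9 is part of each of these counts, yet it was listed at 0 in every control and met the minimum level only through treated libraries. Its direction was thus fixed by that minimum level and adds nothing to these counts. Xcl1 cleared control narrowly, with 724 counts in CSF1Ri+CD40 3 against 685 in control 2. Of the 9, 1 (Ccl6) lay fully above control with CD40, as did 4.19% of all genes, and 2 (Ccl3 and Ccl1) lay fully above and 1 (Ccl6) fully below with CSF1Ri, against 11.6% above and 10.3% below.

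Against CD40 alone, the CSF1Ri+CD40 libraries were higher in Ccl4 by 2.42 ± 0.973 on the log2 scale, in Ccl5 by 1.79 ± 0.577 and in Ccl3 by 1.38 ± 0.641. Part of that came from CD40 3, since without it the values were 1.00, 1.03 and 0.67. Of the 9 genes, 3 lay fully above and 1 fully below CD40, against 8.19% and 6.84% of all genes. Against CSF1Ri alone, the log2 differences were 2.17 ± 1.07 for Ccl4, 1.03 ± 0.632 for Ccl5 and 1.69 ± 0.702 for Ccl3. Of the 9, 4 lay fully above and 1 (Ccl1) fully below CSF1Ri, against 16.5% and 16.8% of all genes. These comparisons share libraries with those over control and are no separate evidence.

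**Figure D2:**
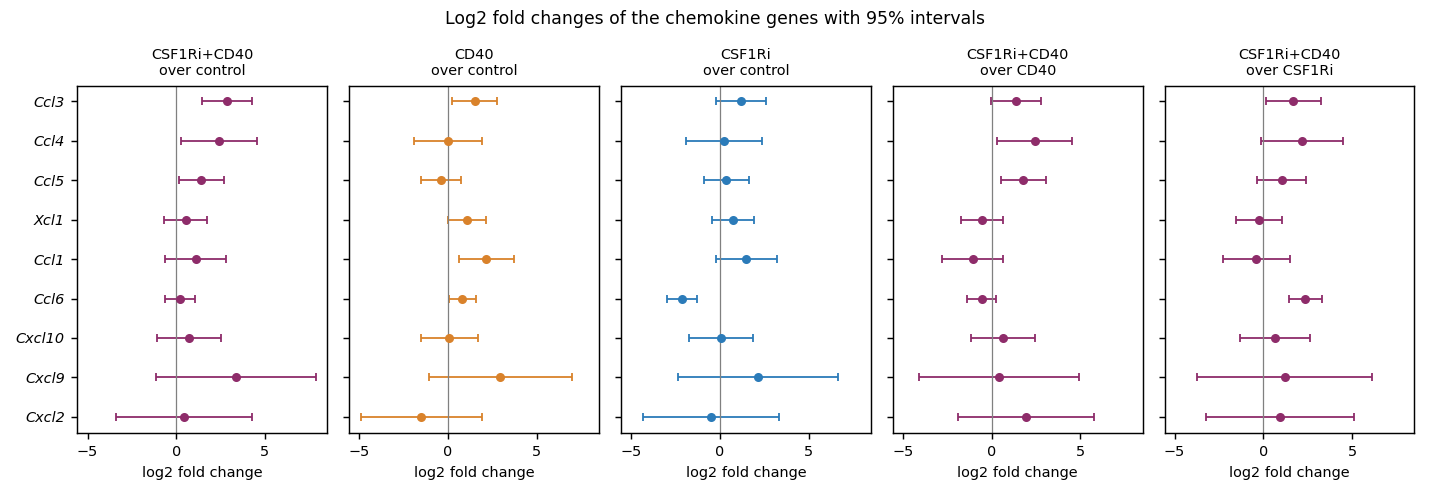
Log2 fold changes (horizontal axis) of the 9 genes in 5 comparisons, with points for the fitted value and bars for the 95% interval from limma. Ccl3, Ccl4 and Ccl5 lay to the right of 0 in CSF1Ri+CD40 over control, and Ccl6 lay at -2.15 in CSF1Ri over control.

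The level of the CD8 T cell gene Cd8a also differed between groups. Cd8a had 3785 and 4947 counts in CSF1Ri+CD40 libraries, 3949, 2744 and 1051 in CD40 libraries, 3223 and 3685 in CSF1Ri libraries, and 1911, 1691 and 1475 in control libraries. It was therefore higher in both inhibitor groups than in control and lowest in CD40 3. Set against Cd8a within each library, Ccl5 no longer stood out with both agents: its ratio was 11.3 and 13.6 in CSF1Ri+CD40 libraries, 6.34, 10.1 and 5.11 in CD40 libraries, 8.20 and 7.07 in CSF1Ri libraries and 11.7, 16.0 and 9.33 in control libraries. The ratio of Ccl4 to Cd8a was still higher with both agents, at 1.69 and 1.68 in CSF1Ri+CD40 libraries, 0.853, 1.43 and 0.179 in CD40 libraries, 0.509 and 0.429 in CSF1Ri libraries and 0.628, 1.11 and 0.748 in control libraries. In CSF1Ri libraries both ratios lay below every control, as Cd8a was higher there while Ccl4 and Ccl5 were close to control. The ratio of Ccl3 to Cd8a was 0.284 and 0.370 in CSF1Ri+CD40 libraries, 0.231, 0.309 and 0.193 in CD40 libraries, 0.0856 and 0.186 in CSF1Ri libraries and 0.0994, 0.161 and 0.0902 in control libraries. All 5 libraries of mice given the antibody were above the other 5 libraries in this ratio, CD40 3 included. The gap was narrow, at 0.193 in CD40 3 against 0.186 in CSF1Ri 6, and CD40 3 had the lowest Cd8a. Per 1000 Cd3e counts, Ccl3 was 11.2 in CD40 3, below 14.2 and 30.0 in CSF1Ri libraries and 13.8 and 25.7 in controls 1 and 2. Only control 3, at 5.83, was lower. The split was thus not seen against Cd3e. Natural killer cells release these ligands too, and their marker Ncr1 had 782 and 295 counts in CSF1Ri+CD40 libraries, 253, 911 and 236 in CD40 libraries, 327 and 494 in CSF1Ri libraries and 635, 555 and 407 in control libraries. Of 6 natural killer markers tested, 2 were higher and 4 lower with both agents than in control, and their summed level was 1448 and 818 in CSF1Ri+CD40 libraries and 834 to 1245 in control libraries.

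The proportions among the 3 ligands also differed. Ccl5 per Ccl4 was 6.72 and 8.12 in CSF1Ri+CD40 libraries and 7.43 and 7.09 in CD40 1 and 2, against 16.1 and 16.5 in CSF1Ri libraries and 18.7, 14.5 and 12.5 in control libraries; CD40 3 had 28.5. Apart from CD40 3, libraries with the antibody thus held more Ccl4 for each Ccl5 than libraries without it. Ccl4 per Ccl3 was 5.94 and 4.53 in CSF1Ri+CD40 libraries, 3.69, 4.63 and 0.926 in CD40 libraries, 5.94 and 2.30 in CSF1Ri libraries and 6.32, 6.87 and 8.29 in control libraries. The 3 controls had the highest values of that ratio.

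**Figure D3:**
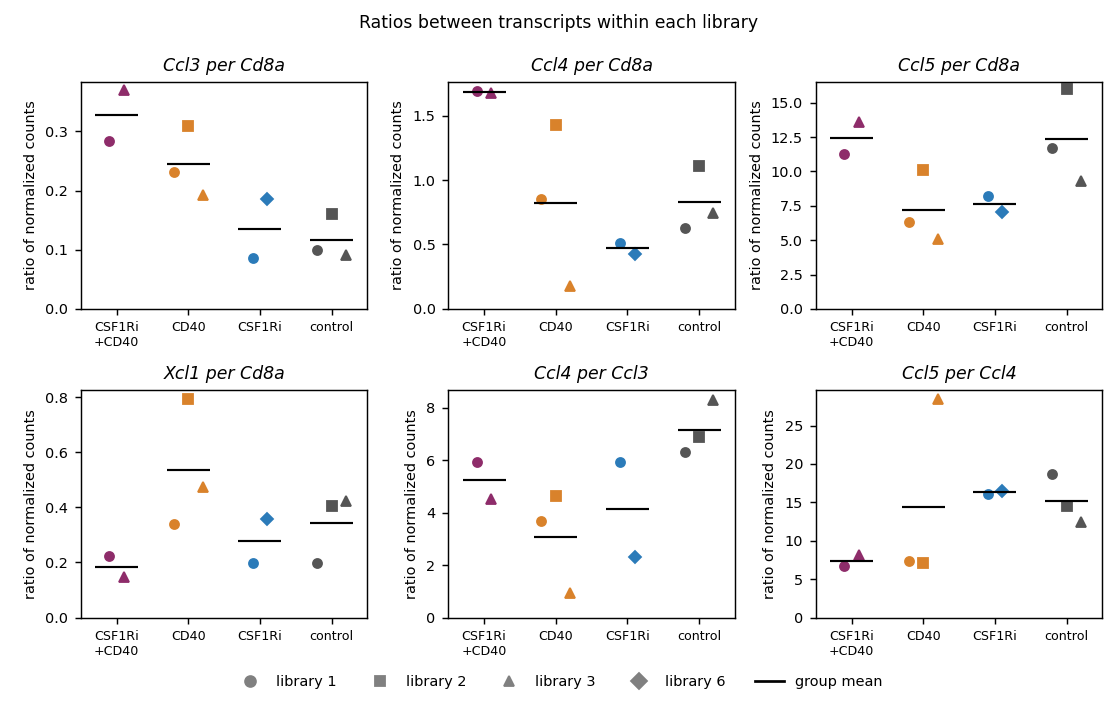
Ratios of normalized counts within each library (vertical axes, linear from 0), by group; each point is 1 library, shapes are the numbers in the titles and lines are group means. Ccl5 per Cd8a overlapped between CSF1Ri+CD40 and control, and Ccl5 per Ccl4 was about 7 to 8 with the antibody except in CD40 3 (28.5). Ccl3 per Cd8a was higher in every library with the antibody than in any without it. That gap was narrow for CD40 3 (0.193, against 0.186 in CSF1Ri 6). Per Cd3e, which is not shown, CD40 3 fell below both CSF1Ri libraries and controls 1 and 2.

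Xcl1, the ligand of XCR1 on cross-presenting dendritic cells, and Ccl1, the ligand of CCR8, followed another order: both were highest in the libraries CD40 1 and 2, not with both agents. Xcl1 had 844 and 724 counts in CSF1Ri+CD40 libraries, 1342, 2173 and 496 in CD40 libraries, 639 and 1312 in CSF1Ri libraries and 379, 685 and 625 in control libraries. Ccl1 had 2572 and 2362 counts in CSF1Ri+CD40 libraries, 6196, 14214 and 1539 in CD40 libraries, 3066 and 3434 in CSF1Ri libraries and 505, 2511 and 1205 in control libraries. Controls alone ranged from 505 to 2511 counts in Ccl1, and CD40 libraries overlapped control for both genes. On the log2 scale, Ccl1 differed from control by 1.10 ± 0.781 with both agents, by 2.16 ± 0.698 with CD40 and by 1.49 ± 0.781 with CSF1Ri, and its interaction was -2.55 ± 1.10. Xcl1 differed by 0.52 ± 0.543 with both agents, 1.05 ± 0.486 with CD40 and 0.75 ± 0.543 with CSF1Ri, with an interaction of -1.28 ± 0.768. Neither interaction passed (adjusted p = 0.991 for each in limma). Without CD40 3 the CD40 values were 3.02 for Ccl1 and 1.64 for Xcl1. Per Cd8a transcript, Xcl1 stood at 0.223 and 0.146 in CSF1Ri+CD40 libraries, against 0.198, 0.405 and 0.424 in control libraries, so no excess of Xcl1 over Cd8a was seen with both agents.

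Ccl6, a rodent chemokine made chiefly by myeloid cells that acts on CCR1, had the narrowest spread within groups of the 9 (residual SD 0.382 on the log2 scale). It had 534 and 452 counts in CSF1Ri+CD40 libraries, 593, 989 and 664 in CD40 libraries, 121 and 73 in CSF1Ri libraries and 349, 373 and 567 in control libraries. Both CSF1Ri libraries lay below every other library, and every CD40 library lay above every control. The log2 fold change over control was 0.23 ± 0.383 with both agents, 0.80 ± 0.342 with CD40 and -2.15 ± 0.383 with CSF1Ri (95% interval -2.98 to -1.31; unadjusted p 0.000135, adjusted p = 1.0 in limma). CSF1Ri+CD40 exceeded CSF1Ri by 2.37 ± 0.419 (adjusted p = 0.876 in limma). Averaged over both inhibitor levels, the CD40 difference was 1.59 ± 0.271, with the smallest adjusted p of any member (0.242 in limma). That average joins 2.37 with the inhibitor and 0.80 without it. The interaction of Ccl6 was 1.57 ± 0.541 (unadjusted p 0.0136, adjusted p = 0.991 in limma).

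Ccl6 did not follow Csf1r, which had 30 and 41 counts in CSF1Ri+CD40 libraries, 235, 99 and 109 in CD40 libraries, 99 and 133 in CSF1Ri libraries and 110, 120 and 106 in control libraries. Csf1r was lowest with both agents, where Ccl6 was at the level of control. Of 13 macrophage markers, 5 were higher and 8 lower with CSF1Ri than in control and none was called. Apoe, Lyz2, C1qa and C1qc lay fully below control, as did 10.3% of all genes. Ctss, a protease that other leukocytes also make, lay fully above control, as did 11.6%. The 13 markers summed to 6395 and 6644 in CSF1Ri libraries and 5857 to 7404 in control libraries, but Ctss held most of that sum. Without Ctss the other 12 summed to 899 and 1935 in CSF1Ri+CD40 libraries, 4588, 1074 and 705 in CD40 libraries, 775 and 1135 in CSF1Ri libraries and 2141, 2640 and 1856 in control libraries. Keratinocyte markers summed to 411 and 485 in CSF1Ri libraries and 1294 to 2370 in control libraries. Fibroblast markers summed to 3166 and 2850 in CSF1Ri libraries and 4658 to 6385 in control libraries. Thy1, which T cells also make, held most of the fibroblast sum in CSF1Ri libraries. It had 1956 and 1925 counts there and 2427, 3008 and 1777 in control libraries. Keratinocyte and fibroblast sums were thus lower in both CSF1Ri libraries than in any control. So were endothelial sums (848 and 736, against 929 to 1000). With CSF1Ri, sums for dendritic cells, B cells, natural killer cells, neutrophils and melanocytes overlapped control. The lowest keratinocyte sum of all libraries was in CD40 3 (335). In CD40 3, whose other 12 macrophage markers summed to 705, Ccl6 had 664 counts. The macrophage markers Adgre1 and C1qc were at 0 in both CSF1Ri+CD40 libraries. Mast cell and basophil markers summed to 14061 and 2741 in CSF1Ri+CD40 libraries, 30097, 3648 and 4544 in CD40 libraries, 3859 and 1317 in CSF1Ri libraries and 798, 1021 and 3035 in control libraries. Of these 10 markers, 9 were higher than in control with both agents, 10 with CD40 and 5 with CSF1Ri. The part of these cells in the Ccl6 levels was not tested.

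Cxcl10 and Cxcl9, the interferon-induced ligands of CXCR3, were scarce and irregular. Cxcl10 had 70 and 453 counts in CSF1Ri+CD40 libraries, 195, 138 and 55 in CD40 libraries, 184 and 68 in CSF1Ri libraries and 136, 88 and 107 in control libraries. CSF1Ri+CD40 held both the highest library and a library below all controls, so its log2 fold change of 0.71 ± 0.824 rested on a single library: it was 2.05 without CSF1Ri+CD40 1 and -0.63 without CSF1Ri+CD40 3. Cxcl9 had 6 and 14 counts in CSF1Ri+CD40 libraries, 2, 153 and 0 in CD40 libraries and 19 and 0 in CSF1Ri libraries, and was listed at 0 in all 3 controls. Apart from CD40 2, these are a handful of counts per library. Cxcl2, the neutrophil attractant, had 30 and 173 counts in CSF1Ri+CD40 libraries, 129, 53 and 0 in CD40 libraries, 61 and 23 in CSF1Ri libraries and 79, 21 and 92 in control libraries, and its groups overlapped throughout. Its log2 fold change with CD40 over control was -1.51 in all libraries and 1.52 in those without Y-linked transcripts, which hold a single CD40 library.

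Across the 10 libraries the members' levels were related to different degrees, given as a description over libraries that share groups and scaling. On log2 values, Pearson's r was 0.95 for Ccl4 with Ccl5, with a Spearman's rho of 0.93, and r was 0.79 without the 2 libraries whose Ccl4 lay farthest from its median. For Xcl1 with Ccl1, r was 0.93 and rho 0.90 (r 0.82 without such libraries). For Ccl3 with Ccl4, r was 0.80 and rho 0.90 (r 0.77 without them), and for Cxcl10 with Cxcl2, r was 0.75 and rho 0.85 (r 0.80 without them). Ccl3 was also related to genes outside these pairs, with r 0.73 for Ccl5 (0.58 without such libraries), 0.63 for Xcl1 (0.84) and 0.60 for Ccl1 (0.72). Ccl3 and Ccl6 had an r of 0.07.

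Among all genes with a mean of at least 50 counts, the 5 most like Ccl4 were Oas1a (r 0.961), Serpina3g (0.953), Ifng (0.948), Ccl5 (0.948) and Fasl (0.939), with a rho of 0.806 for Fasl. CD40 3 had the lowest counts of Ccl4 (188), Ifng (203) and Fasl (90), and values without that library were not computed for these lists. Those most like Ccl5 were Ccl4, Wdr95 (0.943), Serpina3g (0.935), Aig1 (0.922) and Asrgl1 (0.921), although rho was only 0.442 for Aig1. For Ccl3 they were Gm4951 (0.939), Ly6c2 (0.936), Trav16n (0.929), Atp6v1d (0.925) and AW112010 (0.922). For Xcl1 they were Ssr2 (0.962), Lamtor4 (0.949), Gm15772 (0.942), Lta (0.941) and Gm10684 (0.939). Cxcl10 was most like Plpp1 (0.886), 1110032A03Rik (0.853), Bloc1s5 (0.851), Pam (0.839) and Baiap2 (0.832). Cxcl9, which reached 153 counts in CD40 2, was most like Pigu (0.918), Ccdc59 (0.916), Nsrp1 (0.912), Htatip2 (0.911) and Mt1 (0.907). Ifng, the cytokine that induces Cxcl9 and Cxcl10, had 2145 and 2267 counts in CSF1Ri+CD40 libraries, 2659, 1949 and 203 in CD40 libraries, 1272 and 1157 in CSF1Ri libraries and 876, 1063 and 563 in control libraries. Apart from CD40 3, every treated library exceeded every control in Ifng.

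Of 29 other chemokine ligands, 21 were tested. With both agents, 9 of them were higher and 12 lower than control (median log2 fold change -0.61), with CD40 9 were higher and 12 lower (-0.24), and with CSF1Ri likewise 9 and 12 (-0.06); the medians over all genes were 0.0, -0.01 and 0.02. In libraries without Y-linked transcripts, 17 of the 21 were above control with CD40, so the direction of that count rested on the libraries used. The single CD40 library among them was CD40 1. It had the highest sums of all libraries for the 29 other ligands (5072), fibroblast markers (9456) and mast cell and basophil markers (30097). With all libraries, none of the 21 passed with both agents, CD40 or CSF1Ri. The dendritic cell product Ccl22, a CCR4 ligand, had the highest counts of them, with 2451 and 1577 counts in CSF1Ri+CD40 libraries, 2314, 892 and 1290 in CD40 libraries, 1390 and 1230 in CSF1Ri libraries and 2816, 801 and 1117 in control libraries, and each treated group overlapped control. Ccl2, a monocyte attractant, had 208 and 77 counts in CSF1Ri+CD40 libraries, 501, 47 and 12 in CD40 libraries, 74 and 0 in CSF1Ri libraries and 20, 0 and 6 in control libraries. Ccl12, its relative, was listed at 0 in both CSF1Ri+CD40 libraries and had 60, 64 and 22 counts in control libraries. Cx3cl1, the membrane-bound ligand of CX3CR1, had 0, 7 and 0 counts in CD40 libraries, against 27, 12 and 32 in control libraries.

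Of 22 chemokine receptors, 19 were tested, and 14 were higher with both agents than in control, 12 with CD40 and 12 with CSF1Ri. Their median log2 fold changes were 0.48, 0.17 and 0.68, and none passed. Cxcr3, the receptor of CXCL9 and CXCL10, had 4032 and 3289 counts in CSF1Ri+CD40 libraries, 3842, 4011 and 1570 in CD40 libraries, 2545 and 3890 in CSF1Ri libraries and 1142, 2105 and 1385 in control libraries. Its log2 fold change over control was 1.29 ± 0.405 with both agents, 0.95 ± 0.362 with CD40 and 1.07 ± 0.405 with CSF1Ri (adjusted p = 0.774, 0.743 and 1.0 in limma).

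Ccr1, which binds CCL3, CCL5 and CCL6, had 9 and 28 counts in CSF1Ri+CD40 libraries, 76, 53 and 91 in CD40 libraries, 52 and 167 in CSF1Ri libraries and 49, 47 and 84 in control libraries. It was lowest with both agents, the group with the most Ccl3 and Ccl5. Ccr3, another CCL5 receptor, ranged from 7 to 140 counts over all libraries.

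Ccr8, the CCL1 receptor found on regulatory T cells, had 2816 and 2257 counts in CSF1Ri+CD40 libraries, 3318, 3212 and 1440 in CD40 libraries, 3289 and 3142 in CSF1Ri libraries and 1882, 2059 and 2184 in control libraries. Xcr1, the XCL1 receptor of dendritic cells, had 152 and 89 counts in CSF1Ri+CD40 libraries, 127, 147 and 37 in CD40 libraries, 128 and 50 in CSF1Ri libraries and 34, 22 and 32 in control libraries. Every treated library exceeded every control in Xcr1, with a log2 fold change of 1.98 ± 0.786 for both agents, 1.59 ± 0.703 for CD40 and 1.44 ± 0.786 for CSF1Ri (adjusted p = 0.914, 0.773 and 1.0 in limma). The gap was narrow, at 37 counts in CD40 3 against 34 in control 1. Of all genes, 10.6%, 4.19% and 11.6% lay fully above control in these comparisons. Of 12 dendritic cell markers, Xcr1 among them, 6 were higher and 6 lower with both agents than in control. Cxcr2, the CXCL2 receptor, had at most 43 counts. Ccr2, a CCL2 receptor, lay between 2501 and 5031 counts, and Ccr4, a CCL22 receptor, between 73 and 844. Cxcr4, the CXCL12 receptor, was the receptor with the smallest p in each of the 3 comparisons over control, at 951 and 1072 counts in CSF1Ri+CD40 libraries, 674, 893 and 846 in CD40 libraries, 1244 and 1028 in CSF1Ri libraries and 1949, 2022 and 1560 in control libraries.

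**Figure D4:**
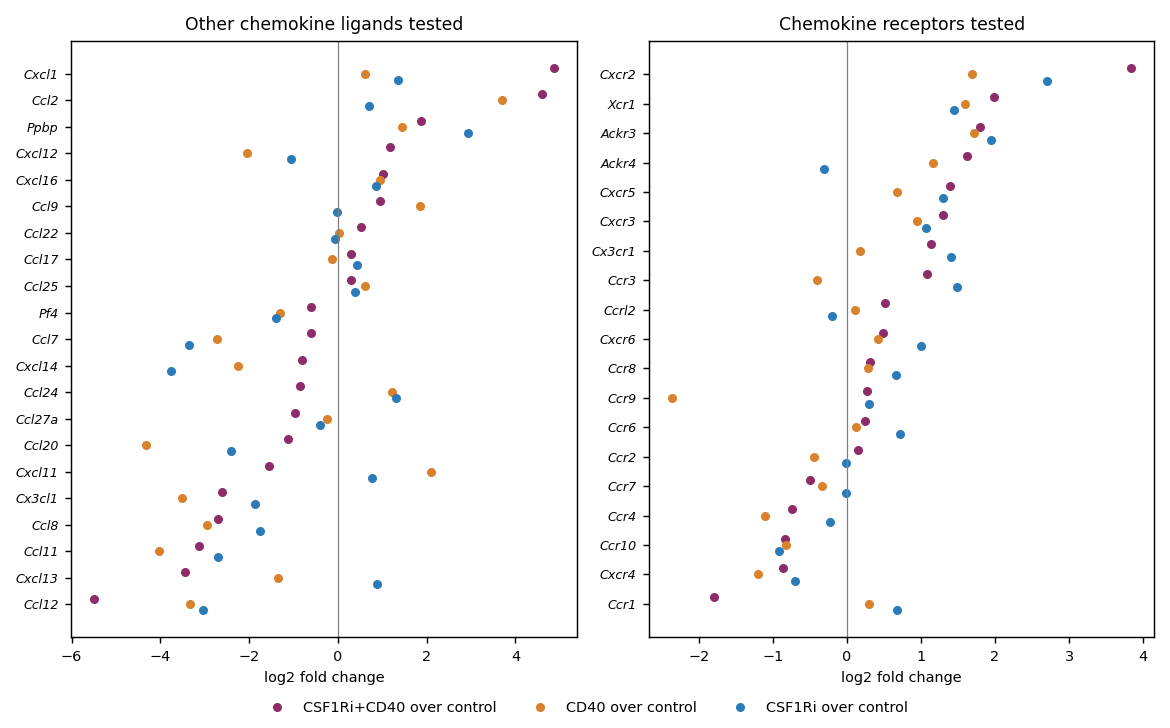
Log2 fold changes over control (horizontal axes) of the 21 other chemokine ligands and the 19 chemokine receptors that were tested, each point a fitted value for CSF1Ri+CD40, CD40 or CSF1Ri, with genes ordered by the CSF1Ri+CD40 value. Other ligands scattered to both sides of 0, with 9 of 21 above it for each treatment (17 of 21 for CD40 in libraries without Y-linked transcripts), and 14 of 19 receptors were above 0 for CSF1Ri+CD40; no gene shown passed the adjusted threshold.

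Genes that act with these ligands in activated CD8 T cells were described in the same way. Of 13 cytotoxic effector genes, 12 were higher with both agents than in control (median log2 fold change 1.24), 11 with CD40 (0.59) and 13 with CSF1Ri (0.59), and none passed. Gzmk, a granzyme, had 2491 and 2651 counts in CSF1Ri+CD40 libraries, 710, 217 and 219 in CD40 libraries, 442 and 345 in CSF1Ri libraries and 55, 338 and 161 in control libraries, which gave a log2 fold change of 4.14 ± 0.687 for both agents (adjusted p = 0.216 in limma). Prf1, which encodes perforin, had 839 and 874 counts in CSF1Ri+CD40 libraries, 511, 330 and 515 in CD40 libraries, 366 and 778 in CSF1Ri libraries and 142, 287 and 190 in control libraries. Every treated library exceeded every control in Prf1.

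Of 22 interferon gamma targets, 20 were tested, and 18 were higher with both agents (median 0.47), 14 with CD40 (0.21) and 12 with CSF1Ri (0.15); none passed. Iigp1, an interferon-induced GTPase, had 2700 and 2562 counts in CSF1Ri+CD40 libraries, 1964, 1076 and 804 in CD40 libraries, 1278 and 1549 in CSF1Ri libraries and 774, 1183 and 985 in control libraries. Irf1, a transcription factor of the same response, had 3187 and 4252 counts in CSF1Ri+CD40 libraries, against 2207, 2476 and 1934 in control libraries. Both were clear of control in the CSF1Ri+CD40 libraries, whereas Cxcl10, a target of the same cytokine, overlapped control.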

How the data were processed

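Bulk mRNA of 10 pools of tumor-infiltrating T cells was sequenced from 50 ng of RNA with a kit that does not keep strand, so overlapping antisense genes cannot be told apart. Per the labels' protocols and the submitters' processing notes, STAR served for alignment to the GRCm38 (mm10) genome, HTSeq for counting and DESeq2 for normalization; versions and the annotation release are not given in the sources used here. The deposited values are treated as a score: whole numbers that the authors obtained by scaling counts and rounding, with totals of 11538244 to 14024851 per library. These totals are not read depths. The precise read depth is unknown, and no counting interval is given.

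Genes with at least 10 in at least 2 libraries were kept (15716). Values were taken to log2 after adding 1, and fold changes are on that scale, which understates the change of low genes. The model of limma 3.58.1 in R 4.3.3 took the 4 groups and a variance trend (6 residual and 5.48 prior degrees of freedom), and 8 contrasts were tested two-sided with Benjamini-Hochberg adjustment at 0.05; the fit was tested on simulated data. The labels do not say whether pools came from separate experiments, so p-values reflect only how these pools varied. Numbers in titles did not pair the libraries.

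Members, gene lists and naming rule were all chosen with earlier results of these data known. A chemokine receptor and an allele of the strain are not reported here. Named were the 9 members in every library, the receptors of these ligands, at most 4 genes per described list, by smallest p, defining cell markers with Ifng, and for 6 members the 5 genes with the highest Pearson's r. The values of Malat1, mt-Nd4, Ctss, Lyz2, C1qa, C1qc, Adgre1, Ccl22, Thy1 and the Y-linked sum were chosen after they were seen. So were the ratios to Cd8a and Cd3e. Alternatives covered the pseudocount, filter, variance trend, scaling, replicate block, Y-linked transcripts and each library. Positions are from GENCODE vM21 on GRCm38, and promoters from RefSeq on GRCm38.p6. Python 3.11.15 with pandas 2.3.3, numpy 2.4.6 and matplotlib 3.10.9 did the rest.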

Additional observations from a re-analysis of the deposited data

Results flagged for a closer look

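For Ccl1 both agents, and for Xcl1 the inhibitor, went one way alone and the other way on top of the partner, in every library against the mean of the group it was compared with. The inhibitor's log2 effect on Ccl1 was -1.06 with CD40 and 1.49 without it, and the antibody's effect on Ccl1 was -0.40 with CSF1Ri and 2.16 without it. The inhibitor's log2 effect on Xcl1 was -0.53 with CD40 and 0.75 without it. In limma the interaction had an adjusted p = 0.991 for both genes, so these opposite directions did not pass a test of the difference. The 2 genes had an r of 0.93 over the libraries and are not separate cases, and the CD40 libraries ranged from 1539 to 14214 counts in Ccl1.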

How the results depend on the processing

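No member changed its call under 18 of the alternatives; leaving out CD40 3 brought Ccl4 past the threshold for both agents over control (2.43, adjusted p = 0.0156) and for CD40 averaged (1.80, adjusted p = 0.0156). CD40 3 held the lowest Ccl4 value, so both passes came from leaving out the value that made the spread. Of 1352 alternative log2 values of members, 70 had the other sign, spread over 30 of 72 values. Scaling to T cell markers moved the median of all genes by -0.31, -0.29 and -0.41 for both agents, CD40 and CSF1Ri over control; 8, 5 and 4 of 9 members were then above 0, and 9, 7 and 7 above that median. Cxcl9, which met the filter only through treated libraries, is among the members counted each time. With the same scaling receptors above 0 numbered 10, 9 and 11 of 19, and above the median 14, 12 and 12. Using only libraries without Y-linked transcripts, which left 1 CD40 library assumed to vary like the others, Ccl3, Ccl4 and Ccl5 with both agents over control were 2.87, 2.34 and 1.48; Ccl6 with CD40 was 0.37 and Cxcl2 with CD40 was 1.52, against -1.51 with all libraries, and 17 of 21 other ligands were above control with CD40.

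Genes past the threshold, in the order both agents, CD40 and CSF1Ri over control, both over CD40, both over CSF1Ri, interaction, CD40 averaged and CSF1Ri averaged, were 0, 1, 1, 0, 0, 0, 0 and 0, and without the variance trend 13, 2, 6, 9, 15, 6, 10 and 12. With a pseudocount of 8, or with a mean of at least 100, 1 passed for both agents and 0 for CSF1Ri; under quantile normalization 0 passed for CSF1Ri. For CD40 and CSF1Ri over control 0 passed without a filter, in the replicate block and in libraries without Y-linked transcripts. Leaving out 1 library gave, in the same order, 0 to 36, 0 to 3, 0 to 0, 0 to 20, 0 to 6, 0 to 2, 0 to 3 and 0 to 1; the 36 came without CSF1Ri+CD40 1, 7 without CSF1Ri+CD40 3 and 1 without CD40 3. Where 1 library was left in a group, it was assumed to vary like the others. For same-number pairs, deviations from the group means correlated at -0.27 to 0.18, and no member passed in the replicate block. Counts near 0, as for Cxcl9, limit what these libraries can show.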
